A study of Homo sapiens with 9 samples.

Results

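The chromatin accessibility of the genes for the costimulatory receptors CD28, CTLA4 and ICOS was described as a single locus on chromosome 2 in Jurkat cells. FAIRE-seq, which recovers the DNA that formaldehyde does not crosslink to protein and so marks open chromatin, had been used to call peaks, and the 4 deposited peak lists were merged by joining peaks that overlapped or touched. A merged region was taken as part of the locus where it lay in the gene body or within 50 kb of the transcription start site (TSS) of CD28, CTLA4 or ICOS. The locus held 16 of 40703 merged regions (autosomes and sex chromosomes): 7 at CD28, 6 at CTLA4 and 3 at ICOS, with no region in more than 1 gene's window. All 3 genes therefore had regions, and all 16 regions are described.

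Jurkat clone E6-1 is a human T cell leukaemia line, so the samples come from 1 transformed clone and not from primary T cells. Its cells were either left non-stimulated (NS) or given PMA and ionomycin, a phorbol ester and a calcium ionophore that together mimic signalling through the T cell receptor. By the labels the stimulus lasted 4 h, whereas the study's methods give a shorter time, and in the stimulus withdrawal (SW) state the cells were then washed and rested for 1 day. Before this, cells were pre-treated for 1 h with DMSO, the solvent, or with rottlerin at 15 µM, a kinase inhibitor used against PKC-theta. The labels give the 4 lists as NS DMSO, SW DMSO, NS rottlerin and SW rottlerin, each from 1 library, so there are no replicates, no test between lists was possible, and no value below has an error. The peak caller compared each library with 1 total input, a mixture of input DNA from unstimulated and stimulated cells.

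The labels of the lists and the study's methods do not agree, and this bears on every value below. The methods describe peak calling on DMSO samples of 4 states (NS; stimulated, ST; SW; and restimulated, RS) and the merging of those, whereas the labels name 2 of the 4 lists as rottlerin. Merging the 4 lists as labelled gave 40731 regions before the 28 outside the main chromosomes were left out, which equals the number of merged regions in the methods. The methods also give 28 as the number of regions removed. The 4 lists thus match in number those that the methods pooled and name as the DMSO samples of NS, ST, SW and RS. This match goes with the 2 rottlerin-labelled lists being those of the ST and RS DMSO samples, and not with their labels. Whether the labels or the methods misname the samples was not tested, and neither was which of the 2 lists would be ST. Each list is therefore called here only by its label, and no effect of rottlerin or of stimulation is read from a difference between lists. The lists also differed in length, with 18977, 20132, 23835 and 30409 peaks on the main chromosomes in the order NS DMSO, SW DMSO, NS rottlerin and SW rottlerin, the order in which all values are given below. Of 7 T cell marker genes, 4 (CD3D, CD3E, CD247 and LCK) had a peak within 1 kb of the TSS in all 4 lists, whereas none of 4 B cell, 4 myeloid and 2 erythroid marker genes had one in any list. CD2 and CD7, also T cell genes, had no such peak in any list, and CD3G had one in the list labelled NS DMSO alone. No share over all coding genes is set beside these marker counts.

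CD28, CTLA4 and ICOS are related receptors of the immunoglobulin superfamily. CD28 is present on resting T cells and binds CD80 and CD86 on antigen-presenting cells, which gives the second signal that a T cell needs beside its antigen receptor. CTLA4 is induced by activation, binds the same ligands more tightly and dampens the response, and ICOS is an inducible costimulator that binds ICOSLG and is known for its part in T cell help to B cells. In the GENCODE annotation on GRCh37 the genes lie in a row on the plus strand: CD28 (ENSG00000178562) at chr2:204571198-204603635, CTLA4 (ENSG00000163599) at chr2:204718611-204738688 and ICOS (ENSG00000163600) at chr2:204801486-204826300. The CD28 and ICOS TSSs are 230 kb apart. The gene record of CTLA4 begins 13.9 kb before the TSS that 2 of its 5 coding transcripts share, and CTLA4 distances below are measured from that shared TSS, at 161 kb from the CD28 TSS and 69 kb from that of ICOS.

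The sequences below were read from GRCh37 on the plus strand, 5′ to 3′, and each is shown because a result below turns on it. They are the part of the CD28, CTLA4 and ICOS TSS regions that lies before the TSS, the region before ICOS with peaks in only the 2 SW-labelled lists, the region downstream of CD28 with the highest fold enrichment of the locus, and the only region of the locus with AP1 letters. Capitals mark matches on either strand to the letters searched, which were TGACTCA or TGAGTCA for AP1, TGGAAA for NFAT, CCGGAA or AGGAAG for ETS, AGATAA or TGATAA for GATA and TGTGGT for RUNX, together with GTGGGCG for EGR, TGACGTCA for CRE, CACCTG for bHLH, CCACNAGG for CTCF, and NFκB.
CD28, before the TSS, chr2:204571123-204571197: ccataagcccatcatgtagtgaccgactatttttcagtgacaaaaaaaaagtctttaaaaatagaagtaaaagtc
CTLA4, before the shared TSS, chr2:204732355-204732493: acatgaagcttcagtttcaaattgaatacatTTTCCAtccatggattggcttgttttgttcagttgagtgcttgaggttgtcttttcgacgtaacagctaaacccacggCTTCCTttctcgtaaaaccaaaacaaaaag
ICOS, before the TSS, chr2:204801236-204801485: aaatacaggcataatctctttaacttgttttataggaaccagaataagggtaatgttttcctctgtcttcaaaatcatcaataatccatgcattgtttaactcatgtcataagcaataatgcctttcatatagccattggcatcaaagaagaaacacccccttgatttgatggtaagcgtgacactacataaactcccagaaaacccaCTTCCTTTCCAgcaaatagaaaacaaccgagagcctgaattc
ICOS, central part of the region 2.41 kb before the TSS, chr2:204798924-204799223: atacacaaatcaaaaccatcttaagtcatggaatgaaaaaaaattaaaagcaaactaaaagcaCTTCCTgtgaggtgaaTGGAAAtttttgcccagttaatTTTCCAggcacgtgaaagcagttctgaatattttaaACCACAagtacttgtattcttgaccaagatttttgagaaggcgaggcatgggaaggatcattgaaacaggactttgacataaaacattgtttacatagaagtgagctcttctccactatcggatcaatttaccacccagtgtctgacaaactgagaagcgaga
CD28, central part of the region 35 kb after the TSS, chr2:204606025-204606324: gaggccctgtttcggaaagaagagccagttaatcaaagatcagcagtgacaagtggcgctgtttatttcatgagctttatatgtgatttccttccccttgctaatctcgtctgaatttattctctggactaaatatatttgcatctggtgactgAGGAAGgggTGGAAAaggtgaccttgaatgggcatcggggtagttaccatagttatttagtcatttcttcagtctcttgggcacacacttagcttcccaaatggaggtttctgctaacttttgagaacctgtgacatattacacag
CTLA4, region 55.9 kb before the shared TSS, chr2:204676433-204676722: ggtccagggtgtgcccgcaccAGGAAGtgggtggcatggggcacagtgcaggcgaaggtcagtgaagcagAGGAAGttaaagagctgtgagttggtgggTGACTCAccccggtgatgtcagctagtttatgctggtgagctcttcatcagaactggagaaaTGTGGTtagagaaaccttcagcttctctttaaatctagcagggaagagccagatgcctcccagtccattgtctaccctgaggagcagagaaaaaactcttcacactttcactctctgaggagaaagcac
In the ICOS sequence before the TSS, the ETS and NFAT letters overlap by a base on the minus strand. The 75 bases before the CD28 TSS held none of the letters. A match is a description of the sequence and not a binding site.

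The question put to the lists was which regions of the locus had a called peak in which list. A missing peak is not evidence of closed chromatin, since presence also depended on the q cut-off and on list length. All 16 regions had a peak in the list labelled SW rottlerin, 10 in SW DMSO, 9 in NS rottlerin and 8 in NS DMSO. Over all merged regions the shares were 74.5% in SW rottlerin, 49.3% in SW DMSO, 58.4% in NS rottlerin and 46.5% in NS DMSO. The longest list thus held every region of the locus. When every list was reduced to its 18977 highest-scoring peaks, 13 of the 16 regions were left, and 8, 9, 8 and 11 of them had a peak in list order, beside 58.4% to 58.5% of all regions.

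**Figure D1:**
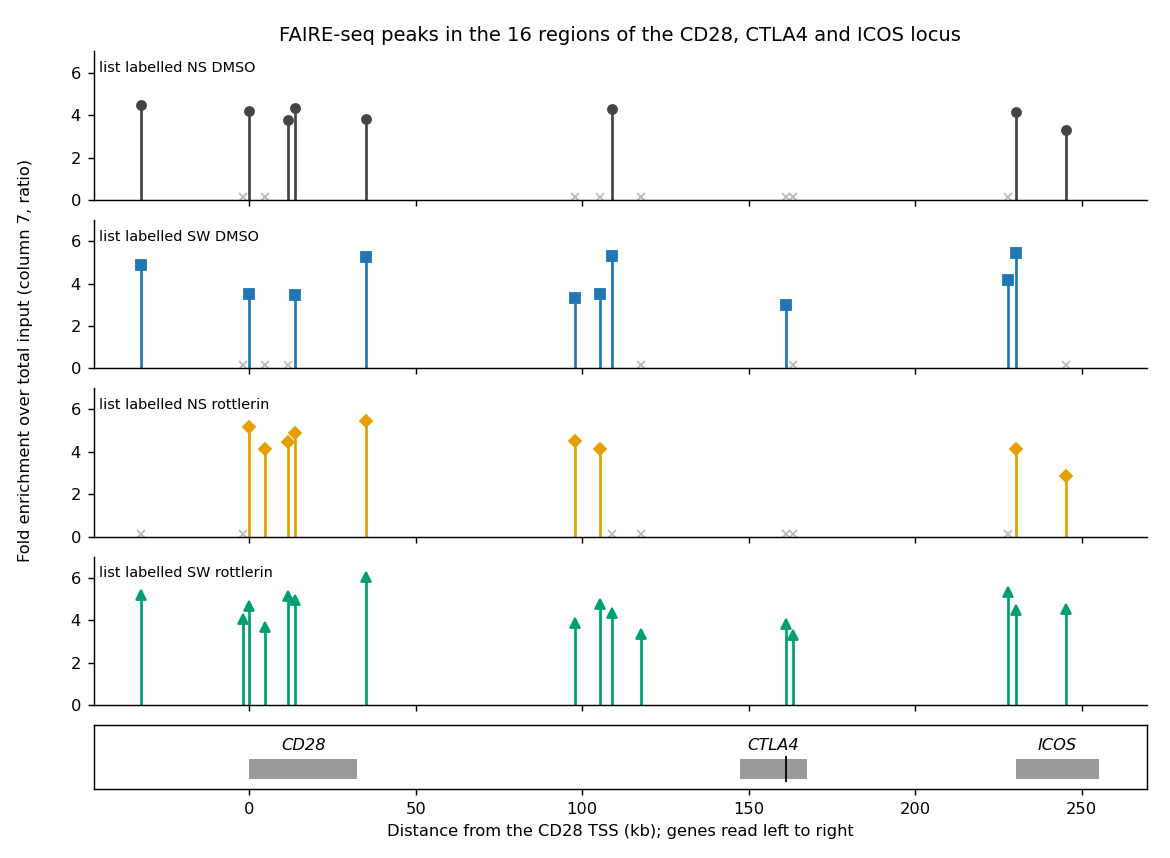
Fold enrichment over total input (column 7 of each list, a ratio) of each merged region against its distance from the CD28 TSS in kb, 1 panel a list, with a cross where a list has no peak, grey bars for the gene records and a black tick at the CTLA4 TSS that coding transcripts share. The list labelled SW rottlerin holds all 16 regions, and only the 2 SW-labelled lists have a peak at the CTLA4 TSS.

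Without a peak in the list labelled NS DMSO were 8 of the 16 regions (50%), beside 53.5% of all merged regions, so the locus as a whole was close to the background. The 3 genes were unlike in this count: 5 of 6 regions at CTLA4 lacked an NS DMSO peak, against 2 of 7 at CD28 and 1 of 3 at ICOS. With so few regions, and with none of them a replicate, the genes' difference was not tested. A peak in all 4 lists was found at 4 regions, 3 at CD28, 1 at ICOS and none at CTLA4, beside 26.6% of all merged regions. The 2 regions with a peak in every list but NS DMSO both lay before CTLA4 (7.08% of all regions had this pattern). With lists of equal length 1 of them was left with this pattern (5.66% of all regions), since the region 63.5 kb before CTLA4 then had a peak in NS rottlerin only. The 2 with a peak in both SW-labelled lists only were the CTLA4 TSS and the region 2.41 kb before ICOS (6.26% of all regions). The 3 with a peak in the list labelled SW rottlerin alone lay before CD28, before CTLA4 and in the CTLA4 intron (18.2% of all regions), and these were the 3 that were lost when the lists were made equal in length.

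In number of regions, 7 or more were found at 13% of the 20163 protein-coding genes, 6 or more at 19.2% and 3 or more at 55.6%, with a median of 3 and none at 14.4%. CD28 thus lay in the upper part of this range and ICOS at its median. CTLA4 lay in the upper part with its 6 regions but at the median with the 3 that its shared TSS gives. The peaks at the locus covered 2495, 2918, 3431 and 6738 bp in list order. Their median column 7, the fold enrichment over the total input, was 4.19, 3.86, 4.46 and 4.52, beside 4.05, 4.03, 4.08 and 4.03 over each whole list. By position, 5 regions were in introns, 5 intergenic, 3 upstream of a gene, 2 over a 5′UTR and 1 at a promoter.

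At CD28, the constitutive receptor of the group, accessibility was present at the TSS in all 4 lists. The TSS region (chr2:204571123-204571446) reached over the first exon, and its fold enrichment was 4.20, 3.53, 5.19 and 4.68. It was highest in the list labelled NS rottlerin, at the 81.7th percentile of that list, and lowest in SW DMSO, at the 26.8th. The peaks were 230, 213, 313 and 272 bp wide in list order.

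The CD28 intron held 3 regions. The one 13.7 kb after the TSS (chr2:204584631-204585146) had a peak in all 4 lists, with fold enrichments of 4.34, 3.44, 4.88 and 4.97. As at the TSS, the value in the list labelled SW DMSO was the lowest. The region 11.8 kb after the TSS (chr2:204582767-204583210) had no SW DMSO peak, and stood at 3.76 in NS DMSO, 4.46 in NS rottlerin and 5.13 in SW rottlerin. These neighbours, 1.42 kb apart, each held 2 GATA matches in their central 300 bp. The third, 4.65 kb after the TSS (chr2:204575152-204576538), was in the 2 rottlerin-labelled lists only, at 4.13 and 3.68. It was the widest region of the locus at 1387 bp, all of it set by the SW rottlerin-labelled peak, since the peak in NS rottlerin was 400 bp wide.

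Outside the gene body, the region 35 kb after the CD28 TSS (chr2:204605666-204606683, intergenic, downstream of the gene's 3′ end) had the highest fold enrichment of the locus. Its values were 3.81, 5.24, 5.46 and 6.05, at the 39.5th, 85th, 86.2nd and 92.2nd percentiles of the lists. All 3 other lists were thus above NS DMSO here. Its peaks were also wide, at 802, 897, 889 and 1018 bp. The region 32.3 kb before the TSS (chr2:204538680-204539031) had values of 4.46, 4.88 and 5.18 in the lists labelled NS DMSO, SW DMSO and SW rottlerin and no peak in NS rottlerin. The last CD28 region, 1.85 kb before the TSS (chr2:204569252-204569442), had 1 peak only, 4.08 in SW rottlerin with the caller's q = 0.0001.

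**Figure D2:**
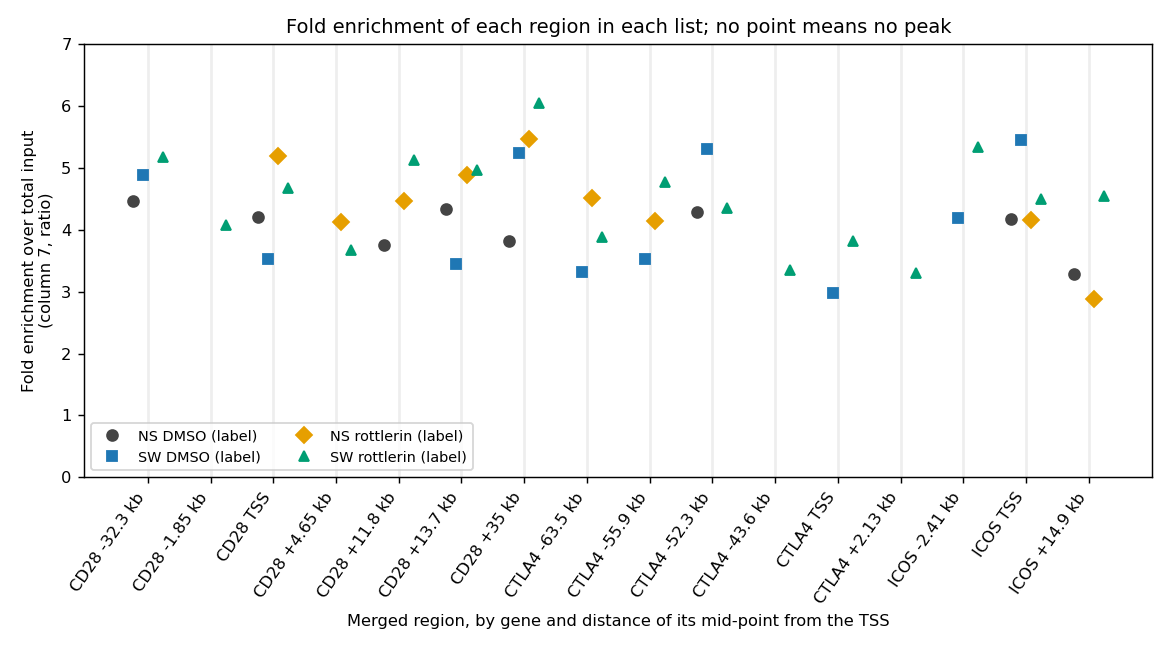
Fold enrichment over total input (column 7, a ratio, 1 library a point) of the 16 merged regions in each list, by gene and distance from the TSS (for CTLA4 the shared TSS). The region 35 kb after the CD28 TSS has the highest point, 6.05 in the list labelled SW rottlerin, and its NS DMSO point at 3.81 is the lowest of its 4.

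At CTLA4, the inhibitory receptor, no peak of the list labelled NS DMSO lay within 50 kb of the shared TSS. The TSS region (chr2:204732355-204732636, over the 5′UTR) had a peak in the 2 SW-labelled lists only, 2.97 in SW DMSO and 3.81 in SW rottlerin. Both were modest: they lay at the 5.96th and 40.4th percentiles of their lists, with q = 0.0071 and 5e-06. The nearest NS DMSO peak was 52 kb away. Both peaks were also present when every list was reduced to the same length. The intron region 2.13 kb after the TSS (chr2:204734549-204734709) had 1 peak, 3.30 in SW rottlerin with q = 0.0045.

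The other 4 CTLA4 regions were intergenic and lay 43.6 to 63.5 kb before the shared TSS. They are 29.7 to 49.6 kb from the start of the gene's longer record, and the 3 farthest belong to the gene only by that record. The region at 63.5 kb (chr2:204668856-204669172) had values of 3.31, 4.51 and 3.88 in the lists other than NS DMSO. The region at 55.9 kb (chr2:204676433-204676722) had 3.52, 4.14 and 4.77 in the same lists. These 2 made up the regions of the locus found in every list but NS DMSO. At 52.3 kb (chr2:204680039-204680331) the values were 4.28, 5.30 and 4.35 in NS DMSO, SW DMSO and SW rottlerin, which is the 1 CTLA4 region with an NS DMSO peak and the 1 region of the locus with none of the motif letters. At 43.6 kb (chr2:204688823-204689036) there was 1 peak, 3.35 in SW rottlerin with q = 0.0084.

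At ICOS, the inducible costimulator, the TSS was accessible in all 4 lists. The region there (chr2:204801236-204801578, promoter) had values of 4.17, 5.45, 4.15 and 4.49, at the 54.8th, 87.9th, 52.5th and 65.6th percentiles. The list labelled SW DMSO was the highest, and the 2 NS-labelled lists were close to each other. Upstream of it, the region 2.41 kb before the TSS (chr2:204798794-204799353) had no peak in either NS-labelled list. Its values were 4.19 in SW DMSO and 5.34 in SW rottlerin, at the 56.8th and 84th percentiles, and both peaks were also present with lists of equal length. The nearest NS DMSO peak was the one at the ICOS TSS, 2.01 kb away. The intron region 14.9 kb after the TSS (chr2:204816239-204816600) had values of 3.28, 2.88 and 4.55 in NS DMSO, NS rottlerin and SW rottlerin and no SW DMSO peak, and was low in both NS-labelled lists, at the 15.5th and 3.87th percentiles.

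Set side by side, the TSS regions of CD28 and ICOS were in every list, whereas that of CTLA4 was in the SW-labelled lists alone. In the list labelled SW DMSO the order of fold enrichment was ICOS (5.45), CD28 (3.53) and CTLA4 (2.97), and in SW rottlerin it was CD28 (4.68), ICOS (4.49) and CTLA4 (3.81). CTLA4 was the lowest in both. Whether neighbours in these orders differ beyond the spread between libraries cannot be said, since each list is 1 library.

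Where a region had a peak in both lists of a pair, its fold enrichment was compared with that in the list labelled NS DMSO. Over all shared regions the median ratio was 0.98 in SW DMSO (12550 regions), 1.04 in NS rottlerin (13702) and 1.06 in SW rottlerin (14037). At the locus the median was 1.17, 1.15 and 1.15, over 6, 6 and 8 regions, and the ratio was above 1 at 4 of 6, 4 of 6 and 8 of 8, beside 45.1%, 58.7% and 63.2% of all shared regions. The median of these few regions was thus above that of all shared regions in each pair, but the regions were scattered. Their ratios ran from 0.793 to 1.37 in SW DMSO, 0.877 to 1.43 in NS rottlerin and 1.02 to 1.59 in SW rottlerin. The 3 pairs share the NS DMSO list and are not independent. A ratio of 1.5 or more was reached by no region in SW DMSO (1.67% of all shared regions), by none in NS rottlerin (3.19%) and by 1 in SW rottlerin (4.5%).

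That 1 region was the one 35 kb after the CD28 TSS, with a ratio of 1.59 in SW rottlerin, which was 1.49 and so below 1.5 after division by the median of all shared regions. Its ratios in SW DMSO and NS rottlerin were 1.37 and 1.43. The undivided ratios stood at percentiles 96.2 (SW DMSO), 95.3 (NS rottlerin) and 97.1 (SW rottlerin) of the shared regions. The ICOS TSS region had ratios of 1.31, 0.995 and 1.08. It was thus raised against NS DMSO mainly in SW DMSO. The CD28 TSS had ratios of 0.839, 1.23 and 1.11, and the CD28 intron region 13.7 kb after the TSS had 0.793, 1.12 and 1.15. Both were below 1 in SW DMSO alone. The ICOS intron region had 0.877 in NS rottlerin and 1.39 in SW rottlerin.

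**Figure D3:**
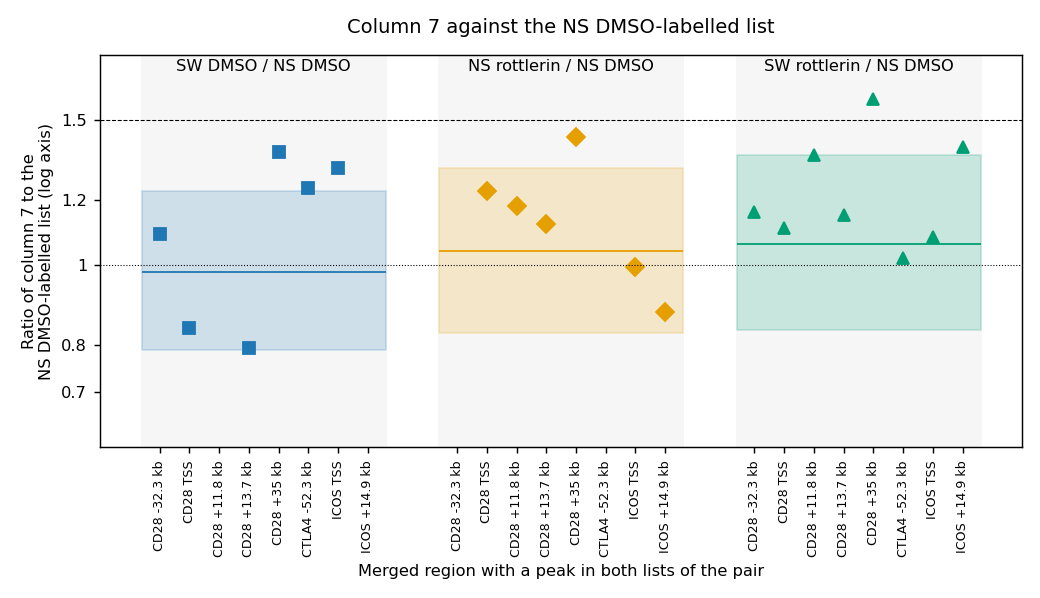
Ratio of column 7 in each list to that in the list labelled NS DMSO (log axis) for the regions of the locus with a peak in both lists, with the median of all shared regions as a line and their 10th to 90th percentiles as a band. The region 35 kb after the CD28 TSS lies above the band in all 3 panels and passes the dashed line at 1.5 in SW rottlerin only, though not after division by the median (1.49).

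In the central 300 bp of the 16 regions, ETS letters were found in 10 regions (48.9% of all merged regions), NFAT letters in 7 (27.9%), RUNX letters in 7 (32.8%) and GATA letters in 5 (31.5%). In regions narrower than 300 bp this window reaches past the region's ends. Within whole regions the counts were 11 for ETS (56.1%), 6 for NFAT (32.5%), 9 for RUNX (38.8%) and 6 for GATA (35.8%). AP1 letters were in 1 region, 55.9 kb before the CTLA4 TSS (13.2% of all regions), and bHLH letters (21.4%) and CTCF letters (5.95%) were each in the CD28 TSS region only, where the CTCF letters overlapped the RUNX letters. EGR (5.85%), CRE (0.985%) and NFκB (7.28%) letters were in none. Of the 8 regions with no NS DMSO peak, 1 held AP1 letters. The region 2.41 kb before ICOS held 2 NFAT matches, 1 ETS and 1 RUNX match, and was among the more AT-rich regions, with a GC content of 37% (12.9th percentile of all regions). The ICOS intron region held 3 RUNX matches and 1 GATA match. Median GC content was 44.5% at the locus and 46.3% over all regions.

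**Figure D4:**
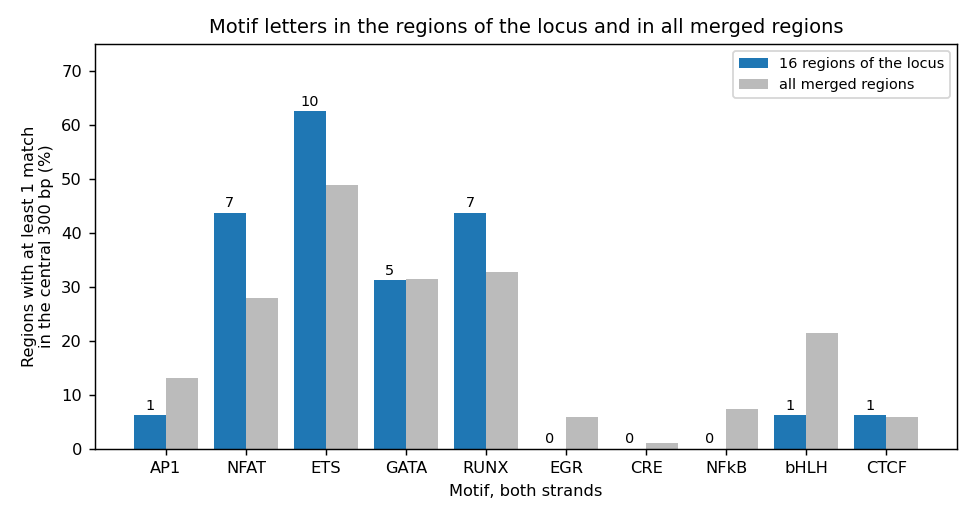
Share of regions (%) with at least 1 match to the motif letters in the central 300 bp, for the 16 regions of the locus (counts above the bars) and for all merged regions. ETS letters are in 10 and AP1 letters in 1 of the 16.

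The genes through which the receptors signal were described by the same rule, for 24 genes. They had 138 regions, counted per gene, of which 70 (50.7%, Wilson 95% interval 42.5 to 58.9%, counting error only) had no peak in the list labelled NS DMSO, close to the 53.5% of all regions. The interval treats the regions as independent, which they are not, since they are grouped by gene and come from the same 4 libraries. It does not measure the spread between libraries. A peak within 1 kb of the TSS was present in all 4 lists at 13 genes, in some at 5 and in none at 6. The share of all coding genes with such a TSS peak is not given here, so these counts are not read as high or low. The ligand genes, which are used by antigen-presenting cells, had no TSS peak in any list: CD80 had no region, CD86 had 1 and ICOSLG had 4, all without an NS DMSO peak.

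Among kinases and adaptors, 47 of 98 regions lacked an NS DMSO peak. LCK, the kinase that phosphorylates the antigen receptor and the CD28 tail, had 2 of 7 such regions, and its relative FYN had 10 of 15. For GRB2 and GRAP2, adaptors that bind the CD28 tail, the counts were 5 of 13 and 6 of 9. The PI3K subunits PIK3R1 and PIK3CD, recruited by CD28 and ICOS, had 4 of 8 and 3 of 5, PDPK1 had 2 of 5, and AKT1, a kinase activated by PI3K, had 1 of 5. VAV1, an exchange factor downstream of CD28, had 1 of 6, and PRKCQ, the gene of PKC-theta, had 8 of 15. BCL10 and MALT1, which act on the way to NFκB, had 2 of 5 and 3 of 5.

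Of the genes that act with CTLA4, LRBA, which protects the CTLA4 protein from degradation, had a TSS peak in every list but NS DMSO, and 4 of its 5 regions had no NS DMSO peak. AP2M1, the clathrin adaptor subunit that internalises CTLA4, had 1 of 4 such regions. PPP2CA and PPP2R1A, subunits of a phosphatase that binds CTLA4, had 2 regions each, all with an NS DMSO peak. PTPN11, a phosphatase recruited by inhibitory receptors, had 4 of 6. For the related inhibitory receptors PDCD1 and BTLA the counts were 3 of 5 and 5 of 6. RC3H1, whose protein represses ICOS mRNA, had 2 regions, both with an NS DMSO peak, and TBK1, whose kinase binds the ICOS tail, had 1 of 3 without one.

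**Figure D5:**
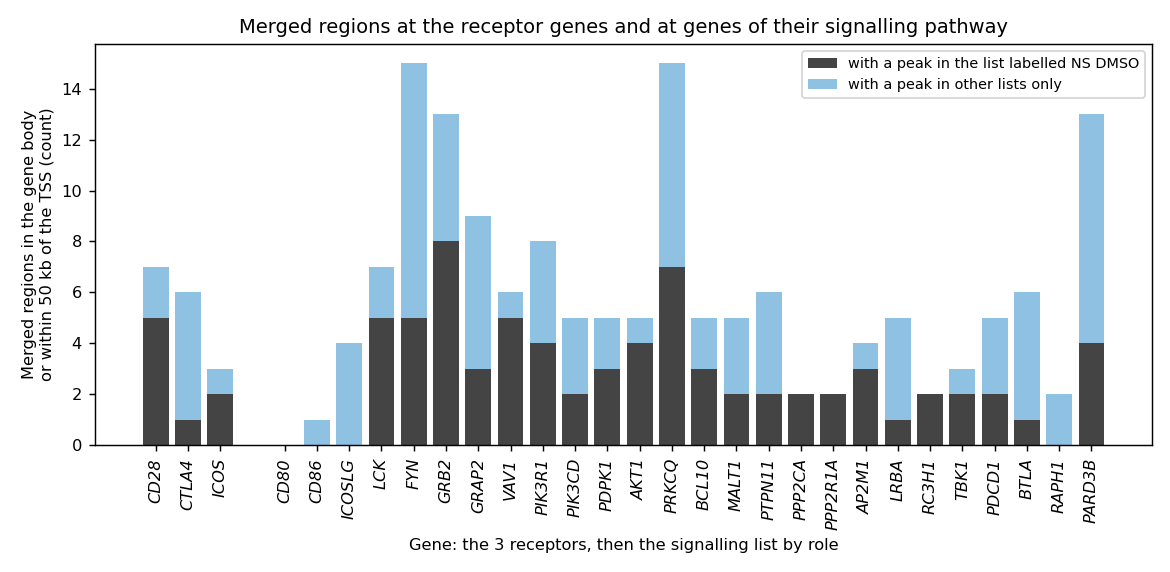
Number of merged regions in the gene body or within 50 kb of the TSS of each gene, split by whether the list labelled NS DMSO has a peak there, for the 3 receptors and then the signalling genes and 2 neighbouring genes. At CTLA4 5 of 6 regions lack an NS DMSO peak and at CD28 2 of 7, beside 53.5% of all merged regions. The CTLA4 count depends on the window, the TSS and list length, and the difference was not tested.

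At the edges of the rule, the region 63.5 kb before the CTLA4 TSS lay 0.245 kb inside the window. The nearest region outside lay 1.35 kb past the ICOS window (chr2:204852837-204853025), with 1 peak of 3.56 in SW rottlerin. A region between the CD28 and CTLA4 windows (chr2:204647043-204647272) had 1 peak of 3.14 in the same list. Further past ICOS, 40.4 kb outside the window, a region at chr2:204891873-204892231 had a peak in all 4 lists, at 3.87, 3.94, 4.27 and 5.02.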

How the data were processed

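FAIRE-seq was performed in 8 Jurkat samples with 1 total input. The authors trimmed reads with cutadapt, aligned them to hg19 with Bowtie2, discarded duplicates with Picard and called broad peaks with MACS2 against the input. The study's methods describe this peak calling for the DMSO samples, whereas the labels of the lists also name rottlerin. HTSeq is also named in the submitters' processing notes. In the deposited peak lists, column 5 holds a score, which is 10 times the −log10 q-value truncated to a whole number, column 7 a ratio (fold enrichment over the input), and columns 8 and 9 the −log10 p-value and q-value as the authors' peak caller gave them. The highest q in each list was 0.0946 to 0.0983. The lists give no read numbers, so depth is unknown. By the labels 5 of the 9 samples have no list, and these were not analysed here.

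Peaks were merged in Python 3.11.15 with numpy 2.4.6, drawn with matplotlib 3.10.9, and set against GENCODE release 44 lifted to GRCh37. The gene record's start served as the TSS in the rule. A region's fold enrichment is its highest column 7 in that list. Each mid-point took the first class that held it: a UTR (5′, then 3′), another exonic base, an intron, the 1 kb before a TSS (promoter), the stretch from there to 10 kb (upstream), and otherwise intergenic. Matches to motif letters were counted on both strands in the central 300 bp, which in narrower regions includes sequence beyond the region's ends. With 1 library a list, no test was run. The merging and counting were tested on simulated peaks. Every region of the locus is named, and otherwise the genes of the signalling list, with 2 neighbouring genes, and cell type markers, given as counts. The 6 T cell marker genes named beside LCK were named after their values were seen. The signalling list as drawn up held further genes that are not reported here. The members and lists were chosen with earlier results of these data known. The alternatives were other windows, q-values, list lengths, TSSs, ratios and motif widths.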

Additional observations from a re-analysis of the deposited data

How the results depend on the processing

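No paired analysis was possible because each list comes from 1 library and no test was run. Of 61 alternatives computed, 46 stayed within 1.5 times the reported count or, for the share at signalling genes, within its interval. Some of the 46 could not move, such as a ratio of 2 in SW DMSO and NS rottlerin, where no region reached 1.5. Others were counts of 0 that stayed at 0, for EGR, CRE and NFκB letters. The tally is therefore not a measure of robustness. A window of 25 kb left 10 regions, of which 5 had no NS DMSO peak and 2 were at CTLA4, and one of 100 kb gave 11 regions at CD28, 10 at CTLA4 and 7 at ICOS. With the same number of highest-scoring peaks in every list, 5 regions lacked an NS DMSO peak, beside 41.5% of all regions, and the share at the signalling genes fell to 37.6%, since the longer lists lost peaks. No region of the locus reached the ratio in SW rottlerin at a ratio of 2 or after division by the median ratio (0 in both). GATA letters were in 9 regions in the central 500 bp, and bHLH letters in 2 over the whole region and 3 in the central 500 bp. Among alternatives chosen after seeing the data, the shared CTLA4 TSS as the start of the window left 3 regions at CTLA4, and without the longest list, labelled SW rottlerin, 5 regions lacked an NS DMSO peak. Counts at CTLA4 thus depend on the window and the TSS, and those of regions without an NS DMSO peak also on list length. At q of 0.01 or less the region 63.5 kb before CTLA4 had no SW DMSO peak and the ICOS intron region no NS rottlerin peak.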

Other observations

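The genes on either side of the locus gave the following values by the same rule. RAPH1, on the CD28 side, had 2 regions, with peaks in the 2 rottlerin-labelled lists and none in NS DMSO or SW DMSO. PARD3B, a long gene on the ICOS side, had 13 regions, of which 9 had no NS DMSO peak and 2 had a peak in all 4 lists. Neither gene had a peak within 1 kb of its TSS in any list. PTPN11, in the signalling list, had a TSS peak in the 2 SW-labelled lists only, the same pattern as the shared CTLA4 TSS, which is not the start of the CTLA4 gene record. It was picked from the 24 signalling genes for this pattern. Over all merged regions 6.26% had a peak in both SW-labelled lists only, which is a share of regions and not of TSSs. No link between PTPN11 and CTLA4 is read from the shared pattern.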
